A study of Mus musculus with 3 samples.

Results

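The genes described here are Cxcl1, Cxcl2, Cxcl3 and Cxcl5, which encode chemokines that attract neutrophils, Cxcr2, which encodes their receptor, and Csf3r, which encodes the receptor for granulocyte colony-stimulating factor. They were chosen by name, with earlier results of these data known, and all 6 had a row among the 50262 genes of the table. Dissociated mouse brains with glioma were sorted by CD45, which blood-lineage cells carry, microglia included, and their RNA was sequenced cell by cell. Each captured mRNA carried a unique molecular identifier (UMI), and levels are the UMIs of a gene for every 1000000 UMIs of the same cells (CPM). All 3 groups, early, medium and late (named large in the labels), were adult mice of 1 model, on a mixed background with a conditional wild-type human EGFR transgene, Cdkn2a-/- and a conditional luciferase reporter. In every group tumors were started by injecting a lentivirus that expressed TGFa and iCre, so only cells the virus reached recombined, and other brain cells were those of the host. Tumor growth was followed by the luciferase signal, and per the labels cells of samples 1 and 2 were pooled where they were few. The labels do not tie these samples to a stage, and each stage was treated as 1 tumor sample. The study's methods report pooling of 2 mice or tumors for each Early sample and single tumors for Late samples, and name no medium stage. Tumor-free brains were not analysed here.

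Chemokines of this family bind Cxcr2 on neutrophils and draw them out of the bone marrow and into inflamed tissue. Macrophages, stromal cells and endothelial cells make them after NF-kB activation, and their mRNAs are short-lived. In mice Cxcr2 is the main receptor for them, while Csf3r controls the production and survival of neutrophils.

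After filtering, 17758 cells were analysed. The CD45+ sort held 5092 early, 3973 medium and 2105 late cells with 10814467, 9695543 and 5366987 UMIs. The CD45- sort held 2723, 1606 and 2259 cells with 8086154, 6575271 and 10535252 UMIs. Of 18335 distinct cell barcodes, 2117 occurred in more than 1 library and were kept apart by library. Marker-defined groups are named with "-like", because the names rest on RNA markers. A CD45+ cluster led by Retnlg, Lcn2, Ltf and Ngp had 11 of the 12 neutrophil markers raised and is called the Retnlg-led cluster. It held granule genes of the middle stage of neutrophil formation beside genes of mature neutrophils. It held 49 early, 249 medium and 27 late cells. A second neutrophil-like cluster is called the precursor-gene cluster and held 33, 82 and 11 CD45+ cells. Its neutrophil markers lay almost wholly in the medium cells, with 19170 of its 19172 UMIs for these markers. Microglia markers were found in 32 of its 33 early cells and mast cell or basophil markers in 7 of its 11 late cells. By these markers its early and late cells went against the neutrophil name. Of these cells, 28 early and 4 late ones had more UMIs of neutrophil precursor genes than of mast cell or basophil markers. Values for neutrophil-like cells pool both clusters, and the members' levels in the Retnlg-led cluster alone stand beside them.

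The 4 ligand genes lay on the plus strand of chromosome 5 of GRCm38 within 146.6 kb, in the order Cxcl5 (5:90759360-90761624), Cxcl3 (5:90786103-90789600), Cxcl1 (5:90891241-90893115) and Cxcl2 (5:90903871-90905938). Their identifiers are ENSMUSG00000029371, ENSMUSG00000029379, ENSMUSG00000029380 and ENSMUSG00000058427. Ppbp and Cxcl15, other ligands of the same receptor, and Pf4 lay among them. Cxcr2 (ENSMUSG00000026180, 1:74153989-74161246) and Csf3r (ENSMUSG00000028859, 4:126024550-126044440) were also on the plus strand.

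The proximal promoters of the 3 ligands that were compared between the sorts are shown because each held an NF-kB-type motif. RefSeq sequences (GRCm38.p6) were matched for 5 of the 6 genes by symbol, with no entry for Cxcl5. Each line below is the plus strand, 5′ to 3′, ending at the base before the RefSeq transcription start. That start differs from the gene starts given above, so the windows of Cxcl1, Cxcl2, Cxcr2 and Csf3r end inside those gene intervals. Capitals mark matches, on either strand, of GGG, then any 2 bases, then TTTCC.
Cxcl1, chr5:90891095-90891244: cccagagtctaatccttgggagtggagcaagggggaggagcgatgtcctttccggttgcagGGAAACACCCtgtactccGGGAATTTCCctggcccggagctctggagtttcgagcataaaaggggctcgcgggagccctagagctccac
Cxcl2, chr5:90903749-90903898: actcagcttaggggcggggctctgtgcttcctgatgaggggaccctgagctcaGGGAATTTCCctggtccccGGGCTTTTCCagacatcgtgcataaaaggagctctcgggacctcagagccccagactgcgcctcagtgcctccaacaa
Cxcl3, chr5:90785951-90786100: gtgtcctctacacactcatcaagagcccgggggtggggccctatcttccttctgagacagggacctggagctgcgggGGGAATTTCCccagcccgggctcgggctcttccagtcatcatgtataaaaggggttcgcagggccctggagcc

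The form GGGAATTTCC, shared by all 3, stood at -71 to -62 from the RefSeq start of Cxcl1, at -97 to -88 in Cxcl2 and at -73 to -64 in Cxcl3. This form was read from these same promoters, so its share over all promoters is a description only. Cxcl1 held another match on the minus strand at -89 to -80, and Cxcl2 another on the plus strand at -78 to -69. The motif with any 2 middle bases occurred in 1.41% of 32851 promoters of 250 bases (464 promoters), and GGGAATTTCC, which it includes, in 0.0852% (28 promoters). Neither form was found in the windows of Cxcr2, Csf3r, Ppbp and Cxcl15. A match is a string of letters and not a measured binding site.

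The first comparison was between CD45+ and CD45- cells of the same tumor-bearing brains. Of the 6588 CD45- cells, 1297 had a UMI of the human EGFR transgene and 2730 were oligodendrocyte-like. Cxcl1, Cxcl2, Cxcl3, Cxcr2 and Csf3r were all higher in CD45+ cells. The test was the edgeR quasi-likelihood test on UMIs summed per tumor sample and sort, with tumor sample as a block and Benjamini-Hochberg adjustment over all 18431 genes tested. Of the members, 5 of 5 tested were higher, where 20.4% of all genes tested were higher and 25.7% lower, 46.1% in either direction. A CD45 sort gathers leukocyte genes in CD45+ cells, so this count does not single out the members. Without TMM scaling the higher genes were 28.3% of all calls in place of 44.3%, and the median of all genes was -0.40, with the 5 members still higher. The median log2 fold change was 2.77 over these members and -0.04 over all genes tested. In a bulk sum of this kind, fewer cells of a type and less RNA per cell cannot be told apart.

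Cxcl2, an early-response chemokine of macrophages, was at 246 (early), 208 (medium) and 243 CPM (late) in the CD45+ sums (233 ± 21.3, SD, n = 3). In the CD45- sums it was at 3.83, 2.59 and 0.285 CPM. Every CD45+ sum lay far above every CD45- sum, with a log2 fold change of 7.29 (SE 0.67, edgeR adjusted p = 0.000285, higher in 3 of 3 pairs).

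Cxcl1, made by macrophages and stromal cells alike, was at 42.7, 23.7 and 29.6 CPM in the CD45+ sums and at 4.82, 22.4 and 4.37 CPM in the CD45- sums. The sums of both sorts nearly met in the medium tumor and lay well apart in the other samples. Within the medium tumor CD45- cells were higher in run 2 (30.0 against 26.9 CPM). They were lower in run 1 (15.2 against 16.3 CPM) and run 3 (8.54 against 20.6 CPM). A single CD45- cell held 34 of the 147 medium CD45- UMIs. The log2 fold change was 2.33 (SE 0.59, edgeR adjusted p = 0.0171, higher in 3 of 3 pairs). The call was lost when the early sample was left out (1.78, edgeR adjusted p = 0.0858) or the late sample (1.92, edgeR adjusted p = 0.0546), and when genes were not filtered on low counts (2.29, edgeR adjusted p = 0.134).

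Cxcl3 and Cxcl5 were sparse. Cxcl3 had 84 UMIs in CD45+ and 16 in CD45- cells, at 2.22, 3.09 and 5.59 against 0.618, 0.760 and 0.570 CPM. Its log2 fold change was 2.77 (SE 0.49, edgeR adjusted p = 0.00295), higher in 3 of 3 pairs. In the late CD45+ sum, however, 22 of the 30 Cxcl3 UMIs lay in 1 cell. Late cells with a Cxcl3 UMI numbered 6 of 2105 in the CD45+ sort and 6 of 2259 in the CD45- sort. Cxcl3 and Cxcl2 shared 161 stretches of 31 bases (7.59% of those of Cxcl2), so some reads of Cxcl2 may be counted as Cxcl3, which was not tested. In the last 500 bases of the transcripts, 10.9% of Cxcl2 stretches and 0% of Cxcl3 stretches were shared with other genes. Cxcl5, known from epithelial and endothelial cells and platelets, had 8 UMIs in CD45+ cells (0.185, 0.309 and 0.559 CPM) and 17 in CD45- cells (0.866, 0.608 and 0.570 CPM), was below the filter on low counts and was not tested. Among its CD45- UMIs 7 lay in endothelial cell-like cells.

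Cxcr2 was at 55.7, 66.4 and 61.1 CPM in the CD45+ sums and at 20.5, 17.8 and 22.6 CPM in the CD45- sums. No CD45+ sum reached down to a CD45- sum, and the log2 fold change was 1.95 (SE 0.22, edgeR adjusted p = 0.000388, higher in 3 of 3 pairs). Csf3r was at 213, 133 and 153 CPM in the CD45+ sums and at 13.9, 9.13 and 4.18 CPM in the CD45- sums. Its log2 fold change was 4.67 (SE 0.33, edgeR adjusted p = 0.000115, higher in 3 of 3 pairs). Neutrophil markers moved with the sort, with a summed level of 1936, 25426 and 3440 CPM in the CD45+ sums and at most 1.06 CPM in the CD45- sums, where 8 to 10 of the 12 were at 0. With neutrophil-like cells left out of both sorts the 5 calls stood, with Cxcr2 at 1.11 (SE 0.20, edgeR adjusted p = 0.00305) and Csf3r at 4.54 (SE 0.34).

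**Figure D1:**
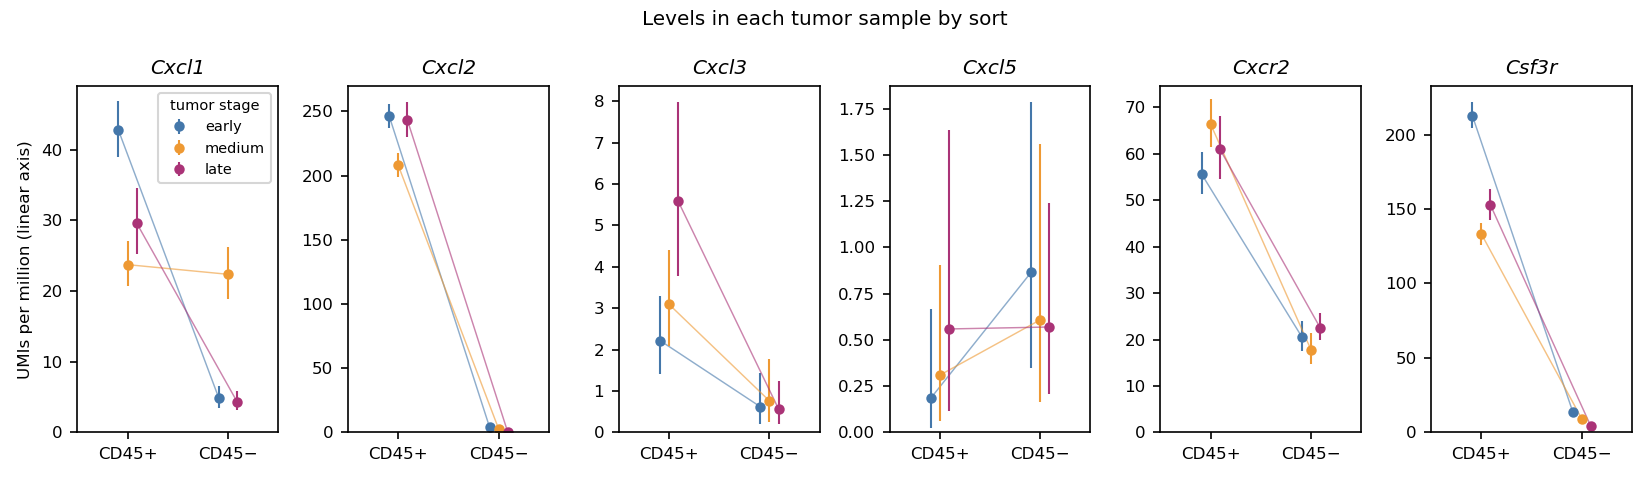
Levels of the 6 genes in CPM (linear axes) in each tumor sample, CD45+ against CD45-. Points are the early, medium and late samples, bars are exact Poisson intervals for counting error, and thin lines join the sorts of a sample. Cxcl2 and Csf3r fall close to the axis in CD45- cells, Cxcl1 is nearly level between the sorts in the medium sample (23.7 and 22.4), and the Cxcl5 bars overlap.

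Most tested genes of the pathway were also higher in CD45+ cells. Of 45 listed genes, 37 were tested, 34 were higher, 1 was lower and 2 did not pass, and their median log2 fold change was 4.01. Of all genes tested 20.4% were higher and 25.7% lower, with a median of -0.04. Many listed genes are leukocyte genes, which a CD45 sort gathers in CD45+ cells, so this count does not single out the pathway. All 7 other chemoattractant receptors were higher, among them Fpr2, a formyl peptide receptor (7.79), and Ltb4r1, the leukotriene B4 receptor (8.53). All 8 NF-kB and mRNA decay genes were higher, from Rela (1.18) to Tnfaip3 (4.86), and among the inducers Il1b (5.91) and Tnf (4.38) were higher, as were Il1a, Il6 and Il17ra. Il1r1, the receptor for IL-1, was at -0.59 (edgeR adjusted p = 0.549). All 7 tested adhesion genes were higher, including Itgb2 (5.58), a subunit of the leukocyte integrins, as were the 3 tested colony-stimulating factor genes Csf2, Csf2ra and Csf2rb. Among 5 tested signalling genes 4 were higher and Socs3 was at 1.27 (edgeR adjusted p = 0.0603). The lower gene was Ackr1, a chemokine-binding receptor of venules that does not signal, at -2.58 (SE 0.43, edgeR adjusted p = 0.00236). Untested were Ppbp, Cxcl15, Cxcr1, Csf3, Il17a, Sele, Selp and Cebpe. Csf3, the ligand of Csf3r, had 2 UMIs, and Cxcr1, the other receptor of this kind, also had 2.

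**Figure D2:**
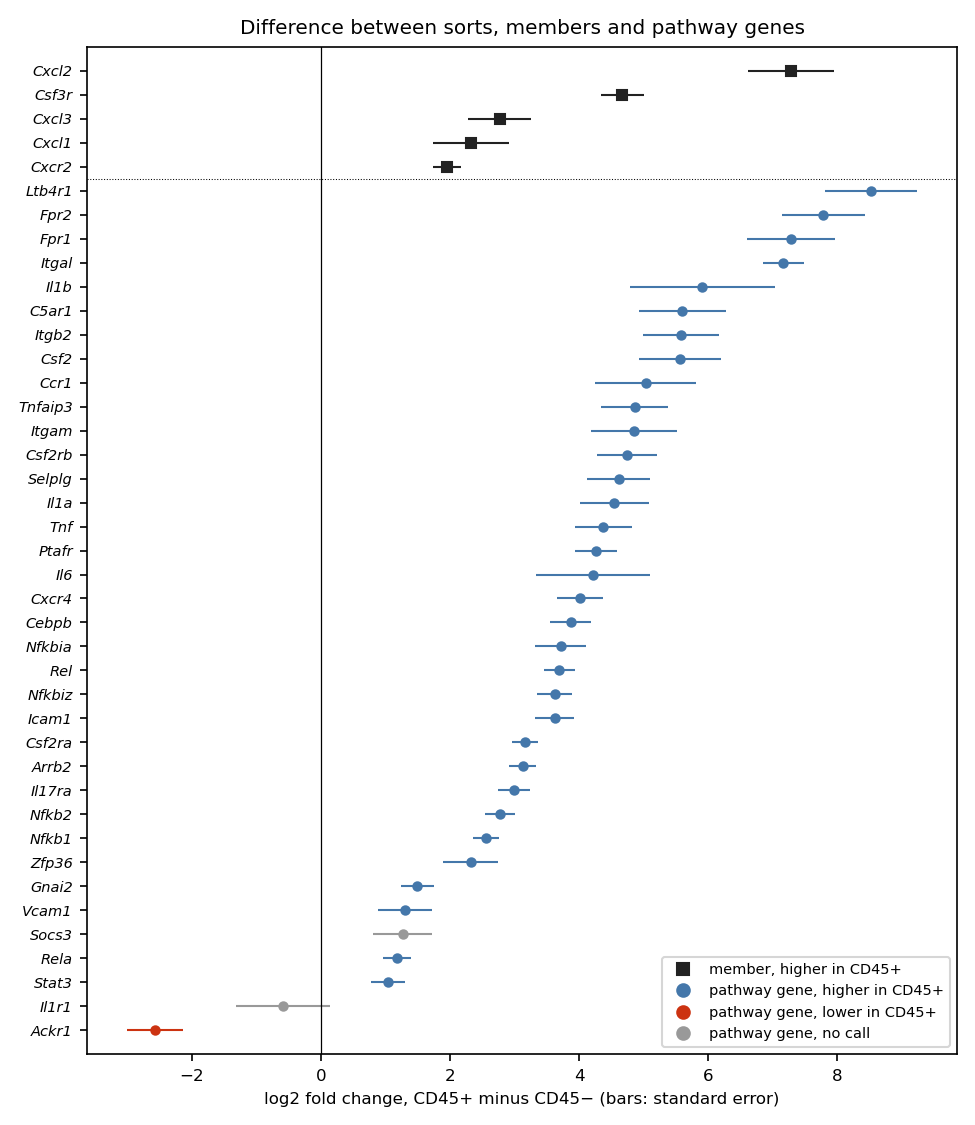
log2 fold change between CD45+ and CD45- cells with its standard error for the 5 tested members (squares) and the tested pathway genes but 1 (circles). All squares lie right of 0, from 1.95 for Cxcr2 to 7.29 for Cxcl2, and Ackr1 at -2.58 is the called gene left of 0.

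The second comparison asked which cells held the ligands. Levels by cell group are a description without a test, since the groups were built from the same cells, although the 6 genes and the pathway genes were left out of clustering. Border or perivascular macrophage-like cells, the resident macrophages of the brain's vessels and coverings, had the highest level of Cxcl2 and, beside a small CD45- cluster, of Cxcl1. In UMIs, macrophage or monocyte-like cells held more Cxcl2 (2452 against 2171), from more cells. In border or perivascular macrophage-like cells Cxcl2 was 2600 CPM early, 1862 medium and 1189 late (1884 ± 706, SD, n = 3). In the same border or perivascular cells Cxcl1 was 630, 315 and 237 CPM (394 ± 208, SD, n = 3). For Cxcl2 the next groups were macrophage or monocyte-like (412 ± 110, SD, n = 3) and neutrophil-like cells (394 ± 314, SD, n = 3), whose ranges overlapped. The Retnlg-led cluster alone was at 624 ± 519 CPM (SD, n = 3), above the macrophage or monocyte-like mean, so the order of these groups turned on the precursor-gene cluster. The lowest border sample lay above every sample of every other group of at least 20 cells.

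At 1000 UMIs per cell, 48.7% of border or perivascular macrophage-like cells had a Cxcl2 UMI (95% exact binomial interval 43.9 to 53.4, 55.6% before thinning). Cells with fewer UMIs were left out, numbering 16 in this group, 9 among macrophage or monocyte-like, 139 among CD45+ microglia-like, 2 among neutrophil-like, 29 among T cell-like and 48 among CD45- oligodendrocyte-like cells. The share was 12.7% in macrophage or monocyte-like cells (16.7% before thinning) and 2.88% in CD45+ microglia-like cells (4.15%). In T cell-like cells, which should lack the gene, it was 2.20% (3.30%), with a median of 1884 UMIs against 1991.5 in the border group. The microglia-like share lay close to this background, and those of the macrophage groups lay above it. For Cxcl1 the border share was 15.9% and the T cell-like share 0.122%.

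Within larger groups Cxcl2 was uneven. Among macrophage or monocyte-like clusters it was 626 CPM in the one led by Napsa, Ms4a4c and Ccr2, 381 CPM in the one led by Arg1 and Spp1, and 227 CPM in the one led by Cxcl9. Among microglia-like clusters the highest levels, 167 and 141 CPM, were in 2 that carried Tnf, Il1a and Gpr84 among their leading genes. Across groups, border or perivascular macrophage-like cells had Il1b at 3078 CPM, the NF-kB regulator Nfkbiz at 556 CPM and Zfp36, which promotes decay of such mRNAs, at 2051 CPM. Macrophage or monocyte-like cells had Il1b at 3095 CPM and Nfkbiz at 242 CPM, and microglia-like cells had Tnf at 1068 CPM. These pathway levels are pooled over stages and sorts, and the groups differ in their make-up by stage.

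Most CD45- Cxcl1 UMIs lay in 2 small groups. An unnamed cluster led by Kcnj8 and Atp13a5, a pair of genes known from pericytes, had 245, 575 and 262 CPM (360 ± 186, SD, n = 3), from 93 UMIs. Its range overlapped that of border or perivascular macrophage-like cells. Of its leading genes 5 were pericyte or smooth muscle markers, but another list had more markers raised (9 against 8), so it was left unnamed. Fibroblast-like cells had 27.5, 260 and 51.2 CPM (113 ± 128, SD, n = 3), from 100 UMIs. They held 40.1% and 43.1% of the 232 CD45- Cxcl1 UMIs, with 1.88% and 3.37% of the cells. The UMIs were concentrated in few cells, 14 of 124 in the first and 15 of 222 in the second, and in the medium sample 1 cell held 31 of 49 and 1 cell 34 of 79 of them. In the medium sample, where the CD45- sum of Cxcl1 was highest, the fibroblast-like level was 9.45 times the early one (95% counting interval 4.73 to 21.4, from 79 and 9 UMIs).

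No Cxcl2 UMI was found in CD45- cells with the tumor transgene, and CD45+ cells with it were not examined. CD45- cells with at least 1 UMI of the human EGFR transgene numbered 7 (early), 328 (medium) and 962 (late). Cxcl2 had 0 UMIs in these 1297 cells, which allows up to 0.340 CPM at 3 counts, and 3.11 CPM (51 UMIs) in the other 5291 CD45- cells, where 45 of the 51 were in microglia-like cells. Cxcl1 was at 1.81 CPM with the transgene (16 UMIs) and at 13.2 CPM without it (216 UMIs). Csf3r was at 2.04 against 12.1 CPM. Cxcr2 was at 26.1 against 17.8 CPM, with a median of 5822 against 2400 UMIs per cell. Both values lay within the range of mean Cxcr2 levels in groups other than neutrophil-like cells, 3.88 to 78.6 CPM.

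**Figure D3:**
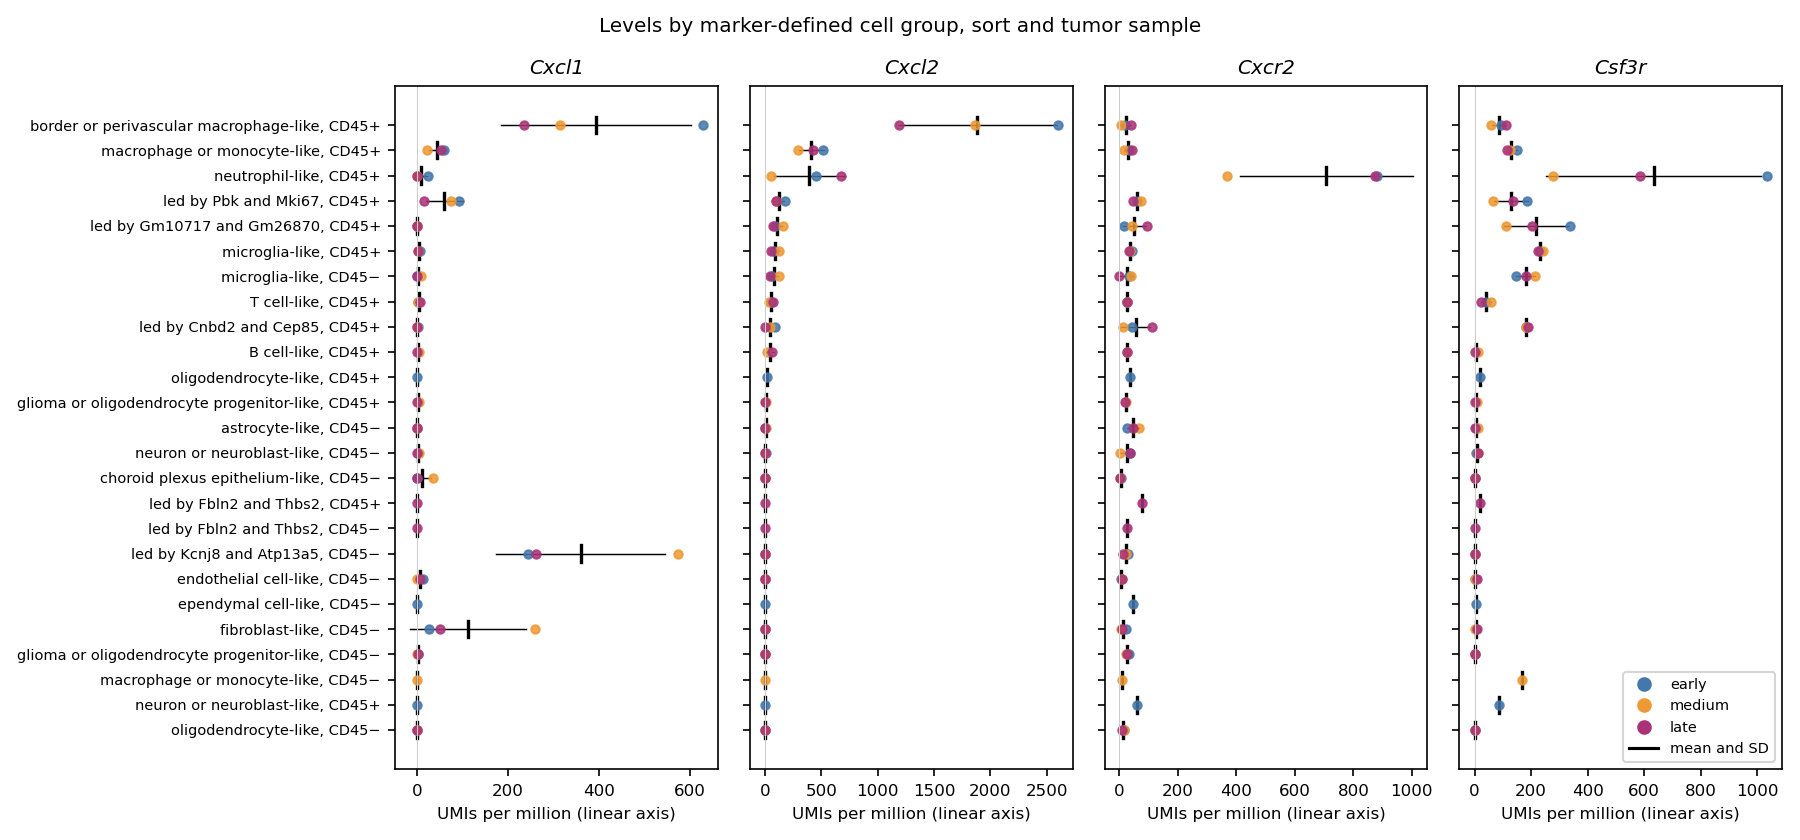
Levels of Cxcl1, Cxcl2, Cxcr2 and Csf3r in CPM (linear axes) for each cell group and sort, ordered by Cxcl2. Points are tumor samples with at least 20 cells of the group, and black marks are the mean and SD. Border or perivascular macrophage-like cells stand out for Cxcl2 (1884 on average) and share the highest Cxcl1 with the CD45- cluster led by Kcnj8 (394 and 360), neutrophil-like cells stand out for Cxcr2 (708), and Csf3r is shared between neutrophil-like and microglia-like cells (634 and 231). The neutrophil-like points pool both clusters, and the Retnlg-led cluster alone averaged 1082 for Cxcr2 and 931 for Csf3r.

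The cells that supplied the Cxcl2 UMIs differed between the stages, although the CD45+ sum stayed between 208 and 246 CPM. Border or perivascular macrophage-like cells held 52.7% of the CD45+ Cxcl2 UMIs early, 27.9% at the medium stage and 15.8% late, while making up 4.97%, 3.42% and 3.47% of the CD45+ cells. Macrophage or monocyte-like cells held 16.3%, 57.2% and 66.3% of the Cxcl2 UMIs and made up 6.62%, 43.6% and 32.0% of the cells. Microglia-like cells held 23.8% in the early sample, where they were 72.7% of the CD45+ cells.

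Cxcl1 shares moved the same way over the stages, with border shares of 73.6%, 41.3% and 25.8% and macrophage or monocyte shares of 10.8%, 39.1% and 66.7%. At the medium stage the border share was the larger of these for Cxcl1 and the smaller for Cxcl2. The level per border cell was also lower late than early. The late to early ratio was 0.457 for Cxcl2 (95% counting interval 0.393 to 0.530), with 0.358 within run 2 and 0.496 within run 3, and 0.376 for Cxcl1 (0.265 to 0.520), with 0.438 and 0.334. With 1 tumor sample per stage these intervals cover counting error only, and stage and animal cannot be told apart.

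**Figure D4:**
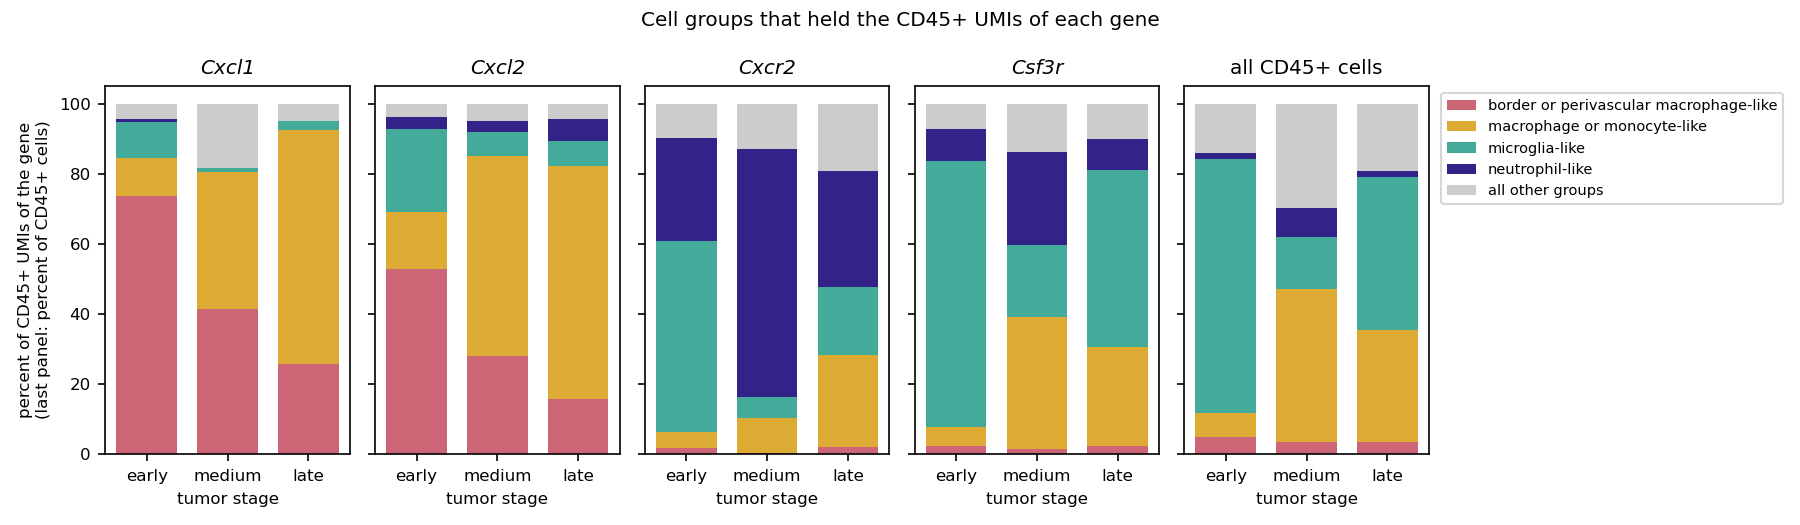
Percent of the CD45+ UMIs of Cxcl1, Cxcl2, Cxcr2 and Csf3r held by each cell group at each stage, with the percent of all CD45+ cells in the last panel. For Cxcl2 the border or perivascular macrophage-like part shrinks from 52.7% to 15.8% and the macrophage or monocyte-like part grows from 16.3% to 66.3%, and for Cxcr2 the neutrophil-like part is largest in the medium sample (70.7%).

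The third comparison concerned the receptors. Cxcr2 was led by neutrophil-like cells at 882, 368 and 875 CPM (708 ± 295, SD, n = 3), and no sample of any other group reached the lowest of these. These values pool both clusters, and the Retnlg-led cluster alone was at 1082 ± 478 CPM (SD, n = 3). The other groups had means of 3.88 to 78.6 CPM, in both sorts. Thinned to 1000 UMIs, 30.7% of neutrophil-like cells had a Cxcr2 UMI (46.3% before thinning, median 2344 UMIs). Before thinning the share was 56.9% in the Retnlg-led cluster and 19.0% in the precursor-gene cluster. The thinned share was 3.37% in CD45+ microglia-like cells (median 1894.5), 2.44% in T cell-like cells (median 1884) and 1.12% in CD45- oligodendrocyte-like cells (median 2471.5). A low share of cells with Cxcr2 was thus found also in these other cell types, and the source of these counts was not tested. Of the 1574 CD45+ Cxcr2 UMIs, 741 (47.1%) were in neutrophil-like cells and 709 of these in the Retnlg-led cluster, and the neutrophil-like share was 29.4% early, 70.7% medium and 33.2% late. Of 31-base stretches in Cxcr2 transcripts, 12.1% also occurred in transcripts of other genes (16.5% in the last 500 bases). Their part in the low counts was not tested.

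Csf3r was shared by neutrophil-like cells, at 1036, 279 and 586 CPM (634 ± 381, SD, n = 3), and CD45+ microglia-like cells, at 230, 241 and 223 CPM (231 ± 8.85, SD, n = 3). The lowest neutrophil-like sample lay above the highest microglia-like one, but the range of a small unnamed cluster led by Gm10717 (111 to 339 CPM) overlapped both. In the Retnlg-led cluster alone Csf3r was at 931 ± 551 CPM (SD, n = 3), and its lowest sample (373 CPM) lay above that cluster too. Macrophage or monocyte-like cells were at 115 to 151 CPM. Microglia-like cells were many and so held 2425 of the 4413 CD45+ Csf3r UMIs (55.0%), with 76.0% early, 20.4% medium and 50.4% late. Thinned to 1000 UMIs, 18.7% of CD45+ microglia-like and 30.3% of neutrophil-like cells had a Csf3r UMI, against 3.90% of T cell-like and 0.224% of CD45- oligodendrocyte-like cells. Before thinning the share was 54.2% in the Retnlg-led cluster and 28.6% in the precursor-gene cluster. Csf3r shared 23.1% of its 31-base stretches with other genes (31.5% in the last 500 bases). Most of them were shared with the gene AC105061.2, so reads of these copies may be split between them.

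The neutrophil-like clusters, built without the 6 genes, were then taken separately. In the Retnlg-led cluster Cxcr2 was at 1269 CPM early, 539 medium and 1438 late and Csf3r at 1475, 373 and 945 CPM. Cxcl2 was at 668, 84.4 and 1119 CPM. All 3 genes were lowest in the medium sample, where most cells of the cluster were found. The early to medium ratio was 2.35 for Cxcr2 (95% counting interval 1.96 to 2.82), 3.96 for Csf3r and 7.91 for Cxcl2 (5.71 to 11). The early Cxcl2 UMIs lay in 12 cells, and 1 cell held 27 of the 91. Without that cell the early level was 476 CPM. In the medium sample 1 cell held 17 of 67 Cxcl2 UMIs, and without it the level was 63.1 CPM. The late to medium ratio was 2.67 for Cxcr2 and 2.54 for Csf3r. Within run 2 Cxcr2 was at 1329 CPM early, 623 medium and 1790 late, and within run 3 at 1395, 578 and 1244 CPM, so the medium sample was lowest in both. Run 1 held 6 early, 48 medium and 1 late cell of the cluster, with Cxcr2 at 757, 250 and 210 CPM. Csf3r was at 1388, 400 and 503 CPM within run 2 and at 1887, 452 and 1417 CPM within run 3. Cxcl2 was at 1004, 51.5 and 2154 CPM within run 2 and at 431, 83.9 and 202 CPM within run 3, but at 101 CPM early and 177 CPM medium within run 1, where the order was turned. Microglia markers in this cluster were also lowest in the medium sample, at a summed 4469, 791 and 1904 CPM over the stages, and their part in these differences was not tested.

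The late ligand values rested on few cells. The 84 late Cxcl2 UMIs lay in 8 cells and 39 of them in 1 cell, without which the level was 613 CPM. The values of runs 2 and 3 came from 14 and 12 cells. Of 23 late Cxcl3 UMIs, 22 were in 1 cell, and the neutrophil-like place of Cxcl3 at the head of its groups therefore turned on that cell. Cxcl1 was at 0 in the medium and late cells, which at 3 counts allows up to 3.78 CPM in the medium cells.

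Finer clustering at resolution 2 cut the Retnlg-led cluster into 230 and 95 cells, of which 157 and 92 were medium cells. Among the medium cells, the larger sub-cluster had the mature neutrophil list (Retnlg, Mmp8, Mmp9, Ccl6 and others) at a summed 17923 CPM and the smaller one at 719 CPM, while granule genes of the middle stage (Ngp, Camp, Ltf and others) were at 85813 and 106810 CPM. Cxcr2 was at 885 CPM in the larger and 145 CPM in the smaller of them, Csf3r at 608 and 105 CPM, and Cxcl2 at 149 and 10.8 CPM. Median depth was 2055 and 3292 UMIs, higher where the members were lower. Within the larger sub-cluster the medium sample was still lowest, with Cxcr2 at 1403 CPM early and 1676 CPM late and Csf3r at 1642 and 1044 CPM. Granule genes were at 30304, 85813 and 45978 CPM in these cells in the order of the stages, and their part in the difference was not tested. In the medium cells of the precursor-gene cluster, with the precursor list (Elane, Mpo, Prtn3, Ctsg, Ms4a3) at 23940 CPM, Cxcr2 was at 60.9 and Csf3r at 111 CPM, and the ligands had 0 UMIs (a limit of 6.77 CPM for 3 counts).

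**Figure D5:**
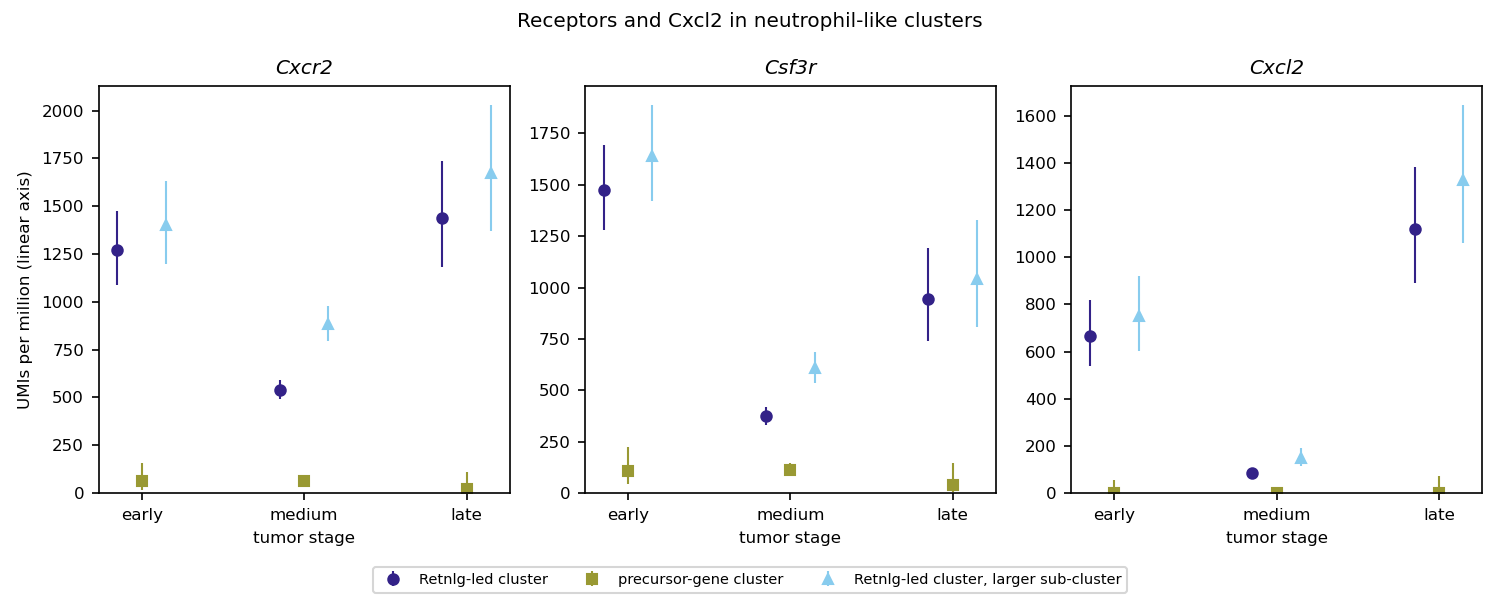
Cxcr2, Csf3r and Cxcl2 in CPM (linear axes) in the Retnlg-led cluster, its larger sub-cluster at resolution 2 and the precursor-gene cluster, by tumor stage, with exact Poisson intervals. The medium sample is lowest in the Retnlg-led cluster (539, 373 and 84.4), and the precursor-gene cluster lies near the axis throughout.

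Ligand and receptor UMIs were counted in the same cells. Of the 325 cells of the Retnlg-led cluster, 185 had a Cxcr2 UMI, 176 a Csf3r UMI and 121 both. Cxcl2 was found in 39 cells, of which 32 also had Cxcr2. That was 17.3% of the cells with Cxcr2 and 5.00% of those without, at median depths of 2252 and 2383.5 UMIs. As background, 3.30% of T cell-like cells had a Cxcl2 UMI at a median of 1884 UMIs, close to the pooled share without Cxcr2. Microglia markers had UMIs in 41.8% of the cells of the cluster. The stages differed in both genes, so the pooled shares mix them. By stage the shares were 28.6% and 14.3% early, 11.02% and 4.10% medium, and 34.8% and 0 of 4 cells late. The sub-clusters at resolution 2 are mixed too, with 19.9% and 8.11% in the larger and 3.45% and 1.52% in the smaller. All 41 cells with any of the 4 ligands had a UMI of Cxcr2 or Csf3r, as did 240 of the 325 cells.

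Profiles over the 45 sums of at least 50 cells per cell group, sort and tumor sample placed Cxcl2 nearest to Ccl9 (Pearson r = 0.925), Ms4a6d, Ccl6, Wfdc17 and Lrrc25. Cxcl1 was nearest to Colec12 (0.776), Ccl7, Dse, Ifi202b and Clec10a, and Csf3r to Nfam1 (0.969), Itgam, Spi1, Cd33 and Ncf1. Cxcr2 was nearest to Cpa3 (0.784), Tpsab1, Tpsb2, Mrgpra2b and Prss34. With the precursor-gene cluster, which carried mast cell or basophil markers, taken out of the same sums, its nearest genes were Mrgpra2b (0.804), Mrgpra2a, Wfdc21, Olfm4 and Trem3, a list chosen after seeing the data. Among the members themselves r was 0.745 for Cxcl2 with Csf3r, 0.608 for Cxcr2 with Csf3r, 0.572 for Cxcl1 with Cxcl2 and 0.281 for Cxcl2 with Cxcr2. The sums share libraries and cell groups, and these values are descriptions.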

How the data were processed

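Cells of 3 tumor samples (early, medium, late) were sorted by CD45 and run on inDrop, with 4 libraries per stage and sort spread over 3 sequencing runs. The deposited table held UMI counts that the authors obtained with RapMap in bcbio-nextgen on the GRCm38 transcriptome (mm10 per the labels). A deposited annotation of text values gave the stage and sort of each library. The study's methods name removal of ambient RNA and of doublets, but whether these preceded the table is not given in the sources used here.

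Of 20811 cells, 17894 had at least 500 UMIs, at least 500 genes and at most 20% mitochondrial UMIs. Scrublet called 136 of 17786 tested cells doublets (0.765%), and 17758 cells were clustered (scanpy 1.11.5, leidenalg 0.10.2, resolution 1, 32 clusters) without the 51 member and pathway genes. A cluster was named by a list with at least 3 raised markers. Raised meant at least 2 times higher than in other cells and found in at least 10% of the cluster's cells. No other list could have as many raised markers, or more markers among the 10 leading genes. Clusters of low depth also needed a marker of their own list among those genes. CPM of summed counts were averaged over tumor samples with at least 20 cells of a group. Shares of cells were thinned to 1000 UMIs. Limits at 0 use 3 counts. Intervals (95%, exact Poisson or binomial) cover counting error only.

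Counts summed per tumor sample and sort were tested with edgeR 4.0.16 (R 4.3.3; TMM, filterByExpr, robust quasi-likelihood, two-sided, threshold 0.05), with tumor sample as a block. Both sorts came from the same tumors, and their deviations correlated at r = 0.384, 0.28 and 0.321. SE is the absolute log2 fold change over the square root of F. Residual degrees of freedom were 2, and p-values measure the spread between these samples only. Stages, with 1 tumor sample each, were not tested. The edgeR test was also run on simulated counts with known changes. These counts held no difference between tumor samples, so the block was not tested there.

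All 6 members were named, with pathway genes from lists and, for each member with at least 200 UMIs, the 5 genes of highest Pearson r over the 45 sums (log2 of CPM plus 10). An allele of the model and the values of 1 pathway gene are not reported here. Members and lists were chosen with earlier results of these data known. Alternatives included DESeq2 1.42.0, other filters, resolutions and runs, and leaving out each sample.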

Additional observations from a re-analysis of the deposited data

How the results depend on the processing

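None of the sort differences of the 5 tested members reversed its direction under the settings tried. Under the settings listed at the outset, 185 values held, 42 moved and 3 lost the call, all 3 for Cxcl1. Under those chosen after seeing the data 12 held and 2 moved. A fold change held if it kept its direction and its side of the threshold. A count of called genes held if it stayed within a set fold of the main count. Other values held if they moved by less than the replicate spread. The log2 fold change of Cxcl1 was 2.29 (edgeR adjusted p = 0.134) with every gene of at least 1 count, and 1.78 to 3.27 when 1 tumor sample was left out. Without the block for tumor sample (no replicate block), the pairing changed no call of a member: Cxcl1 was at 1.99 (edgeR adjusted p = 0.0425), Cxcl2 at 7.06, Cxcl3 at 2.79, Cxcr2 at 1.96 and Csf3r at 4.54, and 33 pathway genes were higher. Pathway genes called lower numbered 1 to 2 when a sample was left out and 0 in run 3 alone. Mean Cxcr2 in neutrophil-like cells (708 CPM) was 1042 with classes set per cell, 1044 as a mean over cells and 1082 without the precursor-gene cluster, an alternative chosen after seeing the data. The border or perivascular macrophage-like share of CD45+ Cxcl2 UMIs (36.3%) was 23.1% to 42.0% when a sample was left out, 33.2% in run 2 and 41.2% in run 3. The neutrophil-like share of Cxcr2 (47.1%) was 30.8% to 58.0%, 57.4% and 35.0% in the same order. The microglia-like share of Csf3r (55.0%) was 32.0% to 69.3%, 51.3% and 61.7%, with 56.9% at resolution 0.5 and 48.7% with classes set per cell. These shares follow each sample's cells, and the causes of the other shifts were not tested. Without the late libraries of run 1, which held 108 CD45+ cells, the 5 members stayed higher; this was also chosen after seeing the data. Cxcl5 (25 UMIs) was fitted only without a filter, at -0.66 by DESeq2 (adjusted p = 0.749) and at -0.72 by edgeR (adjusted p = 0.622). In the 27 late cells of the Retnlg-led cluster 1 cell held nearly all Cxcl3 and 39 of 84 Cxcl2 UMIs.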
